A study of Mus musculus with 22 samples.

Results

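A group of 7 genes of the ectodysplasin pathway were followed across both sexes and both genotypes in the epithelium of the fetal mouse urogenital sinus: Eda, Edar, Edaradd, Tnfrsf19, Traf6, Nfkbia and Relb, out of the 19050 genes tested. They were chosen by name, and each was represented by the probe set annotated to that gene alone with the highest mean over all arrays. The urogenital sinus is the fetal tube from which prostatic buds grow in males. The 22 whole-transcript arrays came from C57BL/6J fetuses at E16.75, a late fetal stage, and comprised 6 male knockouts, 6 male controls, 5 female knockouts and 5 female controls. Knockouts (ShhCre/+; Sox9fl/fl) carried Cre recombinase in place of 1 Shh allele, so that Cre was made in Shh-expressing cells, and had floxed alleles at both copies of Sox9. Controls were littermates (Shh+/+; Sox9+/fl) with both Shh alleles intact, no Cre and 1 floxed Sox9 allele. All groups therefore carried at least 1 floxed Sox9 allele, and the loss of Sox9 cannot be told apart from the presence of Cre and the loss of 1 Shh allele. Replicates are labelled biological, yet the labels do not state if the RNA of an array came from 1 fetus or from several, and the p-values rest on the spread among arrays.

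Ectodysplasin A, the product of Eda, is a membrane-bound ligand of the tumour necrosis factor (TNF) family that furin releases from the cell surface. It binds the receptor EDAR, whose death domain recruits the adaptor EDARADD. EDARADD in turn engages TRAF6 and the TAK1 kinase complex, and the IKK complex then marks the inhibitor IκBα, encoded by Nfkbia, for destruction and frees NF-κB. The pathway is best known from placodes, the local thickenings of epithelium from which hair, teeth and many glands bud, where Shh is 1 of its downstream genes. Tnfrsf19 encodes TROY, a receptor related to EDAR in its extracellular part that does not bind ectodysplasin.

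Edaradd and Tnfrsf19 were the members with called differences, both between the sexes, and their proximal promoters are given here to show the sequence at the genes concerned. That of Nfkbia stands beside them because it holds a match to the NF-κB motif, the letters to which this pathway's transcription factor binds. The sequences are from RefSeq (GRCm38.p6), read 5′ to 3′ along the gene, and comprise the 250 bases before each annotated start. Edaradd lies at chr13:12520451-12520700 on the minus strand. Tnfrsf19 has a pair of annotated starts, numbered here by coordinate, with promoters at chr14:61037988-61038237 and chr14:61046856-61047105, both on the minus strand. The promoter of Nfkbia is at chr12:55492648-55492897 on the minus strand. Capitals mark the match to the NF-κB consensus in Nfkbia and to the LEF/TCF core at the first start of Tnfrsf19.
Edaradd: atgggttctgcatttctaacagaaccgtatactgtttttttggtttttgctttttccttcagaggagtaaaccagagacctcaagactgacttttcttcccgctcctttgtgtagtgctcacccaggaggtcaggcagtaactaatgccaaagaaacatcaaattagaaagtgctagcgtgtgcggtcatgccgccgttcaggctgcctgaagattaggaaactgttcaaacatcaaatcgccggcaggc
Tnfrsf19, first start: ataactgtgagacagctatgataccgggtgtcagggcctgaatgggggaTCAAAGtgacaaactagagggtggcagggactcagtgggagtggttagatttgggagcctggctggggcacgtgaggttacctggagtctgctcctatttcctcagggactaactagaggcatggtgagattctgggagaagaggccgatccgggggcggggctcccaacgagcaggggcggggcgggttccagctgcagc
Tnfrsf19, second start: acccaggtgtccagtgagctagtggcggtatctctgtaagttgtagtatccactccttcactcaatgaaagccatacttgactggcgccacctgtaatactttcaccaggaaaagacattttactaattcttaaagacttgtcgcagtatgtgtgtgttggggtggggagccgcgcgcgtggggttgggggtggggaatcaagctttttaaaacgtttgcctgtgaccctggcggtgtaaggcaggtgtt
Nfkbia: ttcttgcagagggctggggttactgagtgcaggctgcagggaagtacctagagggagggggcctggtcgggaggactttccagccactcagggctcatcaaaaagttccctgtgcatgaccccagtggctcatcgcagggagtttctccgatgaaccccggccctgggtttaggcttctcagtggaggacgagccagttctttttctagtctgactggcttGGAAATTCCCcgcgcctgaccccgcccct

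The promoter table held 7 promoters for 6 of the members. Relb had no entry. Both strands were searched for 3 motifs. The NF-κB consensus occurred in 1 of the 7, in Nfkbia as GGAAATTCCC beginning at position -29 counted from the start, against 7.25% of all 32851 promoters. The LEF/TCF core CTTTGA, read as TCAAAG on the other strand, occurred in 2 of the 7. It lay at position -201 from the first start of Tnfrsf19 and at -233 from that of Edar, and 13.8% of all promoters held it. The androgen receptor motif AGAACA occurred in 0 of the 7, against 16.1% of all promoters. These matches describe letters in a short window and not binding.

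The 22 arrays were on a common scale, with array medians of 5.10 to 5.27 on the log2 scale. All 7 members lay above their array's median on 22 of 22 arrays. Under a filter at the 75th percentile Eda passed on 2 arrays and the other 6 members on all 22. Values of different probe sets are not comparable as levels, so each gene is compared with itself. Sox9 checked the genotype: it averaged 8.26 ± 0.14 in male knockouts and 9.33 ± 0.21 in male controls (SD, n = 6 each), and 7.89 ± 0.09 in female knockouts and 8.89 ± 0.11 in female controls (SD, n = 5 each). Sox9 was lower on every knockout array than on every control array of its sex. The mean of 10 epithelial markers, Shh among them, ran from 11.20 to 11.35 over all arrays. The mean of 7 of 10 listed mesenchymal markers ran from 6.99 to 7.41 in male knockouts, from 7.04 to 8.13 in male controls, from 7.10 to 7.27 in female knockouts and from 7.08 to 7.36 in female controls. Male control 6 had the highest value of that list and of the smooth muscle list. In such bulk tissue, fewer cells of a type and less RNA per cell cannot be told apart.

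**Figure D1:**
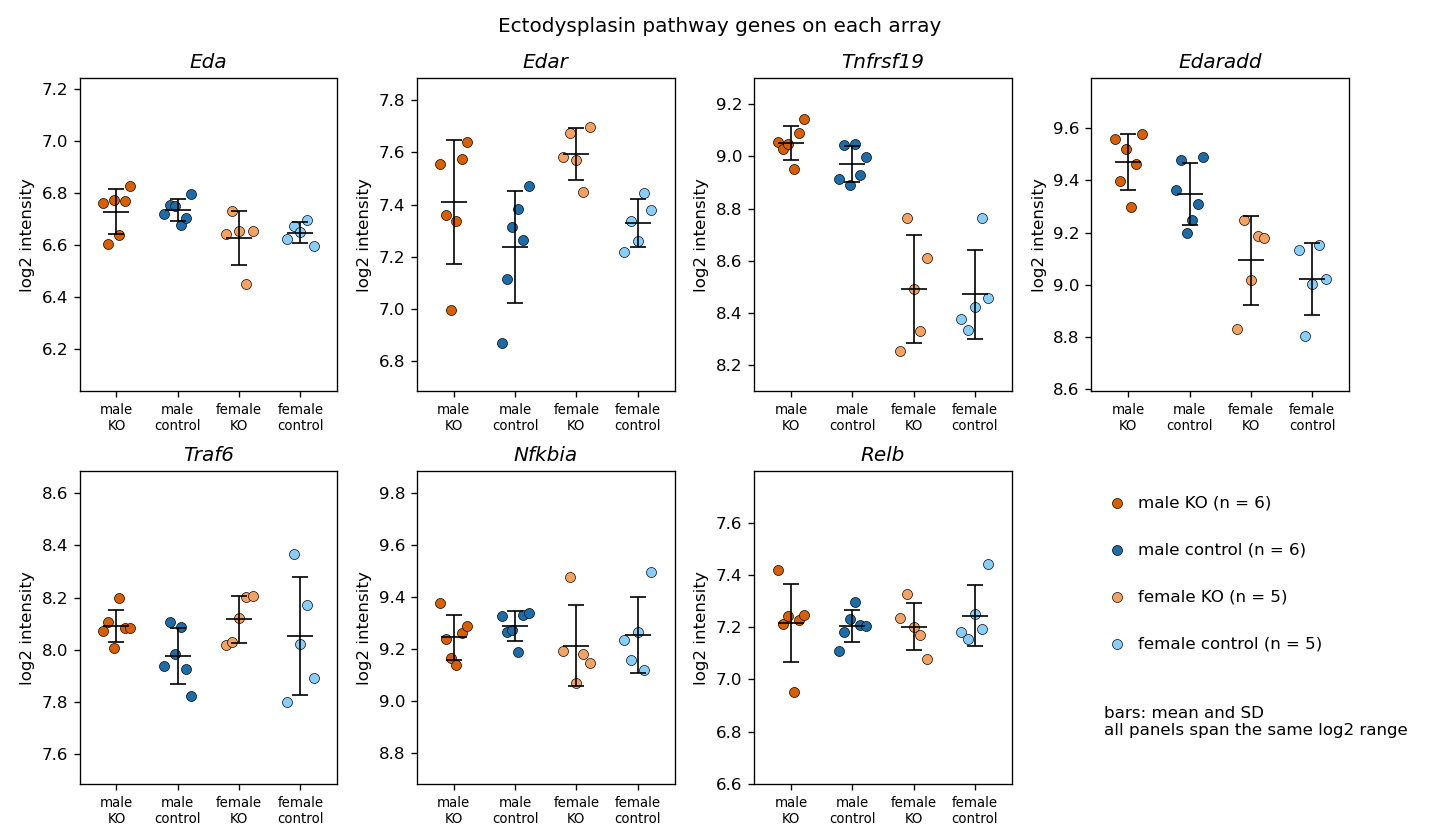
Log2 expression of the 7 members on each array (vertical axis, every panel spanning the same range of log2 units), in male knockouts, male controls, female knockouts and female controls from left to right. Points are arrays and bars are the mean ± SD (n = 6, 6, 5 and 5). Tnfrsf19 and Edaradd separate by sex in both genotypes, and Edar is higher on all 5 female knockout arrays than on any female control array.

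The ligand came first. Eda averaged 6.73 ± 0.09 in male knockouts, 6.73 ± 0.04 in male controls, 6.63 ± 0.10 in female knockouts and 6.65 ± 0.04 in female controls (log2 scale, SD, n = 6, 6, 5 and 5). Over all 22 arrays it ran from 6.45 to 6.83, and the knockout and control arrays overlapped in both sexes. The knockout minus control difference was -0.01 in males (95% interval -0.10 to 0.09) and -0.02 in females (95% interval -0.13 to 0.08), with limma adjusted p of 0.993 and 1.00. The order of the group means put both male groups above both female groups. The male minus female difference was 0.10 in knockouts (SE 0.05, adjusted p = 0.291) and 0.09 in controls (SE 0.05, adjusted p = 0.356), and neither was called. In controls, 5 of 6 male arrays exceeded every female array.

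Enzymes and sister ligands of the family were taken from a list of 8 genes, of which 5 were tested. Pcsk6, a proprotein convertase related to furin, fell in knockouts of both sexes. It averaged 6.57 ± 0.08 in male knockouts and 6.89 ± 0.11 in male controls, a difference of -0.32 (SE 0.06, adjusted p = 0.0152). In females it averaged 6.73 ± 0.11 in knockouts and 7.10 ± 0.09 in controls, a difference of -0.37 (SE 0.06, adjusted p = 0.0343). These were the sole calls by genotype in the list, 1 of 5 lower in each sex, against 0.178% of all genes lower in males and 0.0315% lower in females. The list was chosen with earlier results of these data known, so these shares are a description and no test of the list. Between the sexes, Pcsk6 was lower in males among controls (-0.21, adjusted p = 0.0397). Furin, which cleaves ectodysplasin, was lower in males among knockouts (-0.18, adjusted p = 0.0360) and differed by -0.15 in controls (adjusted p = 0.0872).

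Edar, the ectodysplasin receptor, had the largest difference by genotype of the 7 members, and it did not pass the test across all genes. On the female knockout arrays it read 7.58, 7.68, 7.57, 7.45 and 7.70, against 7.22, 7.34, 7.26, 7.45 and 7.38 on the female control arrays. All 5 knockout arrays were above all 5 control arrays, though the lowest knockout and the highest control were equal to 2 decimals. In males the knockout arrays read 7.55, 7.36, 6.99, 7.34, 7.57 and 7.64, against 6.87, 7.12, 7.32, 7.38, 7.27 and 7.47 on the control arrays. The male groups overlapped, and 3 of 6 knockout arrays exceeded every control array.

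The Edar difference was 0.27 in females (95% interval 0.05 to 0.49), a ratio of 1.20, with an unadjusted limma p of 0.0204 and an adjusted p of 0.871. Of all genes, 0.772% had every female knockout array above every female control array. In males the difference was 0.17 (95% interval -0.03 to 0.37, adjusted p = 0.852), and it was 0.10 without male control 1, the array with the lowest Edar value. Averaged over the sexes it was 0.22 (95% interval 0.07 to 0.37), with an unadjusted p of 0.00597 and an adjusted p of 0.358. The order of means was female knockout, male knockout, female control and male control, and neighbours in it overlapped. Male minus female was -0.18 in knockouts (adjusted p = 0.391) and -0.09 in controls (adjusted p = 0.675). After quantile normalization or median centring, tried after these values had been seen, 4 of the 5 female knockout arrays lay above every control array.

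Markers of immune cells and of bladder urothelium were set beside the Edar values. Averaged over all arrays, the urothelium markers ran from 5.91 for Krt20 to 12.73 for Upk1a, against array medians of 5.10 to 5.27. Whether the sinus epithelium itself makes them was not tested. The mean of 8 immune markers ran from 6.16 to 6.61 in female knockouts and from 6.14 to 6.32 in female controls, and the mean of 6 bladder urothelium markers ran from 9.87 to 10.55 in female knockouts and from 9.66 to 10.20 in female controls. All 8 immune markers had a positive knockout minus control difference in females, with a median of 0.17, and 1 of them had an unadjusted limma p under 0.05. All 6 urothelium markers were likewise positive, with a median of 0.31, and 4 of them had an unadjusted limma p under 0.05. Among these, Upk2, which encodes a uroplakin of the bladder lining, differed by 0.40 (SE 0.16, adjusted p = 0.863). The median over all genes was 0.01, and 5.46% of all genes had an unadjusted limma p under 0.05 in females. In males the list medians were -0.02 and 0.05. There 0 markers were under that unadjusted p in either list, against 6.27% of all genes. No gene of either list was called by genotype in either sex. Their part in the Edar difference was not tested.

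Tnfrsf19, which encodes the EDAR relative TROY, was higher in males in both genotypes. The male knockout arrays read 9.06, 9.03, 9.05, 8.95, 9.09 and 9.14, against 8.26, 8.77, 8.49, 8.33 and 8.61 on the female knockout arrays. The male control arrays read 8.91, 9.04, 8.89, 9.05, 8.93 and 9.00, against 8.38, 8.33, 8.42, 8.77 and 8.46 on the female control arrays. Every male array exceeded every female array of its genotype. The female arrays were also more spread, with SDs of 0.21 in knockouts and 0.17 in controls, against 0.06 and 0.07 in the male groups of the same genotypes.

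The male minus female difference in Tnfrsf19 was 0.56 in knockouts (SE 0.08, 95% interval 0.40 to 0.72, limma adjusted p = 3.56e-05) and 0.50 in controls (SE 0.08, 95% interval 0.34 to 0.66, adjusted p = 0.000176). These are ratios of 1.48 and 1.41. Without female control 4, whose value of 8.77 stood apart from its group, the difference in controls was 0.57. By genotype the gene differed by 0.08 in males (SE 0.08, adjusted p = 0.905) and by 0.02 in females (SE 0.08, adjusted p = 1.00). A second, dimmer probe set of the gene, above the array median on 7 of 22 arrays, gave male minus female differences of 0.35 in knockouts and 0.36 in controls. Both had the sign of the brighter probe set and missed the threshold, with adjusted p of 0.223 and 0.195 over 30439 probe sets.

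Of 14 other receptors of the TNF receptor family on the list, 13 were tested. None was called by genotype. Between the sexes 3 of 13 were called in each genotype, 2 higher and 1 lower in males, and the same 3 genes made up both counts. Of all genes, 7.19% were called between the sexes in knockouts and 6.94% in controls. Tnfrsf21, the death receptor DR6, was higher in males by 0.48 in knockouts (adjusted p = 0.000677) and by 0.49 in controls (adjusted p = 0.000671). Tnfrsf11a, which encodes the receptor RANK, was higher by 0.34 in knockouts and by 0.30 in controls (adjusted p = 0.00935 and 0.0226). Tnfrsf12a, the receptor of TWEAK, went the other way and averaged 7.67 ± 0.22 in male knockouts and 8.42 ± 0.22 in female knockouts, and 7.80 ± 0.13 in male controls and 8.68 ± 0.12 in female controls. Its differences were -0.76 and -0.89 (adjusted p = 2.05e-05 and 2.96e-06). Eda2r, which encodes the receptor of the other ectodysplasin isoform, was too dim to be tested.

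Edaradd, the adaptor that binds the death domain of EDAR, was the second member called between the sexes. The male knockout arrays read 9.56, 9.40, 9.52, 9.30, 9.46 and 9.58, against 8.83, 9.25, 9.02, 9.19 and 9.18 on the female knockout arrays. The male control arrays read 9.36, 9.48, 9.20, 9.25, 9.31 and 9.49, against 9.13, 8.80, 9.00, 9.15 and 9.02 on the female control arrays. As for Tnfrsf19, no male array overlapped the female arrays of its genotype, although the lowest male and highest female knockouts were only 9.30 and 9.25.

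In Edaradd the male minus female difference was 0.38 in knockouts (SE 0.08, 95% interval 0.22 to 0.54, adjusted p = 0.00255) and 0.33 in controls (SE 0.08, 95% interval 0.16 to 0.49, adjusted p = 0.00973), ratios of 1.30 and 1.25. The knockout minus control difference was 0.12 in males (SE 0.07, adjusted p = 0.876) and 0.07 in females (SE 0.08, adjusted p = 1.00), so the order of levels was male knockout, male control, female knockout and female control, with neither neighbouring pair of 1 sex separated.

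Across the members, 2 of 7 were called higher in males and 0 lower in each genotype. Of all genes, 7.19% were called between the sexes in knockouts (3.66% higher and 3.52% lower in males) and 6.94% in controls (3.27% higher and 3.67% lower). All-male-above-all-female separation was found in 2 of 7 members in each genotype, against 2.79% of all genes in knockouts and 2.82% in controls. The median difference over the 7 members was 0.03 in both genotypes, against -0.01 over all genes.

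**Figure D2:**
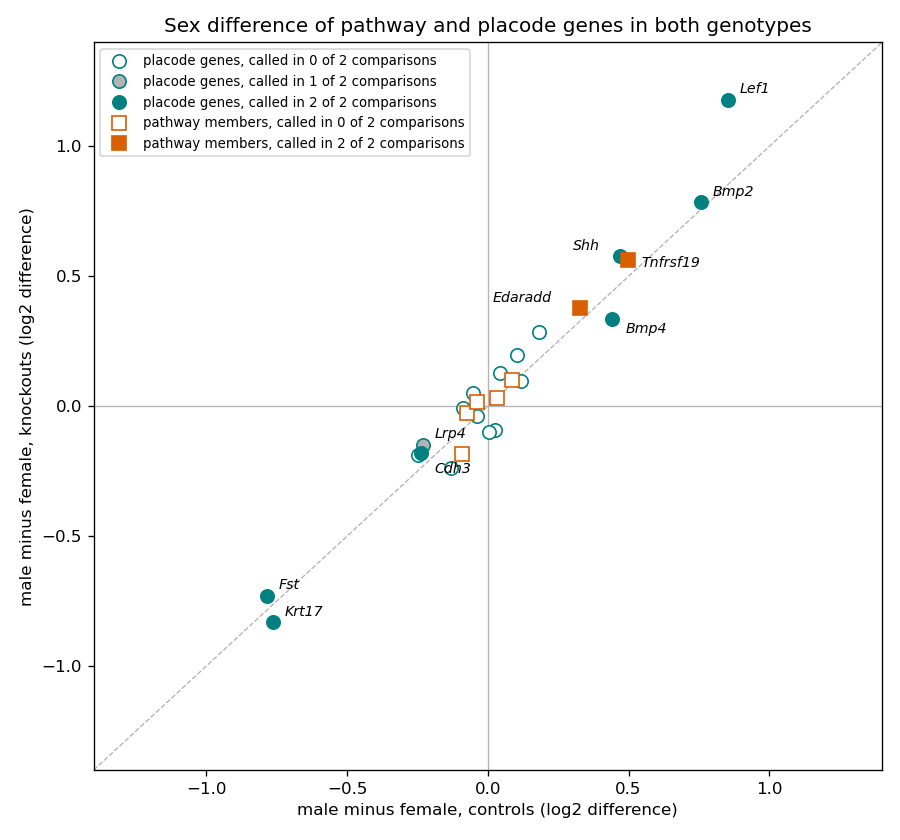
Male minus female log2 differences in controls (horizontal axis) and in knockouts (vertical axis) for the 7 members and for the 19 tested genes linked to Edar in skin and tooth placodes. Tnfrsf19 (0.50 and 0.56) and Edaradd (0.33 and 0.38) stand to the upper right of the other members, and the placode genes lie on both sides of 0.

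Markers that moved with sex stand beside these results. The mesenchymal list had 1 of 7 tested genes higher in males among knockouts (Lum, 0.57) and 1 of 7 lower among controls (Dcn, -0.36). Of the tested markers of smooth muscle (6), endothelium (2), immune cells (8) and urothelium (6), none was called between the sexes. Their signs were nonetheless one-sided in places. In knockouts, male minus female was negative for 8 of 8 immune markers (median -0.16) and 6 of 6 urothelium markers (median -0.22), against medians of 0.02 and -0.02 in controls. In controls it was positive for 6 of 6 smooth muscle markers (median 0.19), against a median of 0.01 in knockouts. Male control 6 weighs on those differences. Its smooth muscle mean was 7.11, against a group median of 5.73 in male controls and 5.63 in female controls. Of the 10 epithelial markers, 2 were higher and 3 lower in males among knockouts, and 1 was higher and 2 lower among controls. Of all genes, 7.19% were called between the sexes in knockouts and 6.94% in controls. Shh, which is on the epithelial list, was higher in males by 0.58 in knockouts and 0.47 in controls. Foxa1, also on it, averaged 11.09 in male and 10.88 in female knockouts. Krt14 and Krt18, keratins of basal and luminal epithelial cells, were lower in males, with differences of -0.35 and -0.34 in knockouts and of -0.30 and -0.28 in controls. The part of these shifts in the differences of Tnfrsf19 and Edaradd was not tested. With the mesenchymal mean as a covariate, Tnfrsf19 differed by 0.56 in knockouts and 0.48 in controls, and Edaradd by 0.37 and 0.31. That mean averaged 7.20 in male and 7.19 in female knockouts, and 7.29 in male and 7.21 in female controls. A covariate so alike in the sexes could move these differences little, and the other lists were not fitted.

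Traf6, the ubiquitin ligase that relays signals from EDARADD, averaged 8.09 ± 0.06 in male knockouts, 7.98 ± 0.11 in male controls, 8.12 ± 0.09 in female knockouts and 8.05 ± 0.23 in female controls (SD, n = 6, 6, 5 and 5). All 6 male knockout arrays exceeded the mean of the male controls, and 4 of 6 male control arrays lay below every male knockout. The difference was 0.11 in males (SE 0.07, adjusted p = 0.879) and 0.07 in females (SE 0.08, adjusted p = 1.00). Male minus female was -0.02 in knockouts and -0.07 in controls (adjusted p = 0.947 and 0.649). Female controls ran from 7.80 to 8.37, the widest range of Traf6 in any group.

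Other TRAF adaptors and parts of the TAK1 complex gave no call. Of 14 listed genes 13 were tested, and 0 were called in any of the 6 comparisons. In males a single gene of the 13 had an unadjusted limma p under 0.05 by genotype, against 6.27% of all genes. This was Tab3, which encodes a TAK1-binding subunit, with a difference of 0.11 (SE 0.05, adjusted p = 0.773). Among controls a single gene of the 13 had an unadjusted limma p under 0.05 between the sexes, against 19.1% of all genes. This was Traf5, with a male minus female difference of -0.16 (SE 0.07, adjusted p = 0.227).

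At the level of NF-κB itself, Nfkbia and Relb were called in no comparison of genotype or sex. Nfkbia, which encodes the inhibitor IκBα and is itself induced by NF-κB, averaged 9.25 ± 0.09 in male knockouts, 9.29 ± 0.06 in male controls, 9.21 ± 0.15 in female knockouts and 9.25 ± 0.15 in female controls. Relb, an NF-κB subunit of the non-canonical arm, averaged 7.22 ± 0.15, 7.20 ± 0.06, 7.20 ± 0.09 and 7.24 ± 0.12 in male knockouts, male controls, female knockouts and female controls.

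The intervals show which sizes these arrays left possible. For Nfkbia the knockout minus control difference was -0.04 in males (95% interval -0.18 to 0.09) and -0.04 in females (95% interval -0.19 to 0.11). For Relb it was 0.01 in males (95% interval -0.12 to 0.14) and -0.04 in females (95% interval -0.19 to 0.10). Male minus female was 0.03 in knockouts and 0.03 in controls for Nfkbia, and 0.01 and -0.04 for Relb, with adjusted p between 0.793 and 0.967. In both genes the highest values were single arrays, 9.48 in female knockout 2 and 9.49 in female control 5 for Nfkbia, and 7.42 in male knockout 1 and 7.44 in female control 5 for Relb.

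Of 12 listed IKK components, NF-κB subunits and inhibitors, 10 were tested and 0 were called in any comparison. The genes of smallest p between the sexes were Nfkb2, which encodes the partner of RELB, at 0.16 in knockouts (adjusted p = 0.0947), and Nfkbie, a further IκB, at -0.24 in controls (adjusted p = 0.0756). Of 15 NF-κB feedback and target genes, 13 were tested. By genotype limma called 0 of 13. In males 2 had an unadjusted p under 0.05 and in females 0 had, against 6.27% and 5.46% of all genes. The 2 in males were the adhesion molecule gene Icam1 (0.20, adjusted p = 0.553) and the chemokine gene Cxcl2 (0.30, adjusted p = 0.617). Between the sexes 1 of 13 was called, in controls, near the 6.94% of all genes called there. This was Birc3, an inhibitor of apoptosis, which was higher in males by 0.34 (adjusted p = 0.0231) and differed by 0.27 in knockouts (adjusted p = 0.0832).

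**Figure D3:**
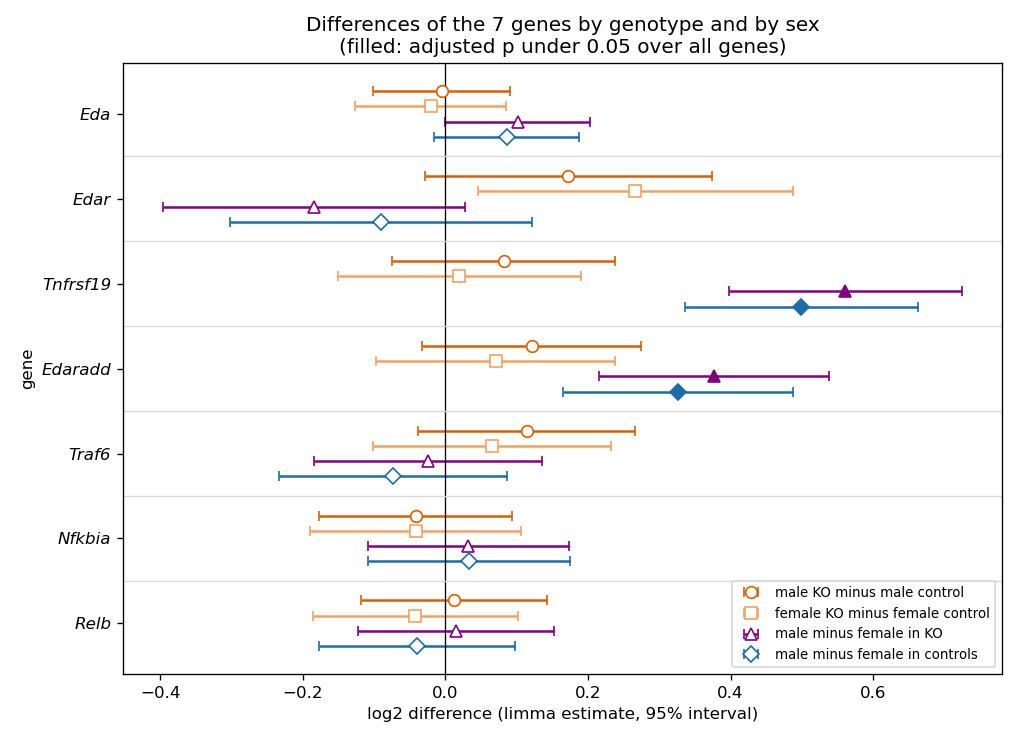
Log2 differences of the 7 members with 95% intervals (horizontal axis) for knockout minus control in males and females and for male minus female in knockouts and controls. Filled points passed an adjusted p under 0.05, which only Tnfrsf19 and Edaradd did, in the comparisons between the sexes.

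By genotype, 0 of the 7 members were called in males, in females or averaged over the sexes. Of all genes, 0.199% were called in males, 0.0315% in females and 0.247% on average, of which 0.199% of all genes were lower on average. With an unadjusted limma p under 0.05 there were 0 members in males, 1 in females and 1 on average, in both cases Edar, against 6.27%, 5.46% and 7.19% of all genes. The median difference over the members was 0.08 in males, 0.02 in females and 0.05 on average, against 0.01 for all genes in each. The male and female effects of genotype were also compared with each other. The interaction ran from -0.09 for Edar (95% interval -0.39 to 0.21) to 0.06 for Tnfrsf19 (95% interval -0.17 to 0.29), with adjusted p of 0.997 or more. It was called for 0 members and had an unadjusted p under 0.05 for 0 members, against 0.00525% and 4.04% of all genes.

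Genes linked to Edar in skin and tooth placodes were taken from a list of 25 names, of which 19 were tested. Whether each acts downstream of Edar was not tested here. By genotype 1 of 19 was called in each sex, against 0.199% of all genes in males and 0.0315% in females. This was Shh, which was lower in knockouts and is also the locus that carries Cre. It averaged 10.77 ± 0.06 in male knockouts and 11.22 ± 0.12 in male controls (-0.45, adjusted p = 0.00874), and 10.20 ± 0.14 in female knockouts and 10.76 ± 0.23 in female controls (-0.56, adjusted p = 0.0128). The list's median difference was 0.02 in males and -0.02 in females, against 0.01 over all genes in both.

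By sex, 4 of these 19 genes were higher and 3 lower in male than in female knockouts, and 4 were higher and 4 lower in male than in female controls. Of all genes, 3.66% were higher and 3.52% lower in male knockouts, and 3.27% were higher and 3.67% lower in male controls. The higher genes were the same in both genotypes. Lef1, a transcription factor of Wnt signalling, averaged 7.19 ± 0.37 in male knockouts and 6.01 ± 0.19 in female knockouts (1.18, adjusted p = 4.10e-06), and 6.77 ± 0.17 in male controls and 5.92 ± 0.21 in female controls (0.85, adjusted p = 0.000268). Bmp2 was higher in males by 0.78 in knockouts and 0.76 in controls, Shh by 0.58 and 0.47, and Bmp4 by 0.33 and 0.44. Lower in males were Krt17, a keratin of placodes and basal cells (-0.83 in knockouts and -0.76 in controls), the activin antagonist gene Fst (-0.73 and -0.79) and Cdh3, which encodes P-cadherin (-0.18 and -0.24). Fst averaged 5.21 in male knockouts and 5.25 in male controls, near the array medians of 5.10 to 5.27. In female knockouts and controls it averaged 5.94 and 6.03. Lrp4, a receptor that modulates Wnt signalling, was called in controls (-0.23, adjusted p = 0.0237) and differed by -0.15 in knockouts (adjusted p = 0.192). The list's median difference was -0.01 in knockouts and 0.01 in controls.

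A list of 14 genes that respond to tissue dissociation, of which 12 were tested, was measured because the tissue was digested with trypsin and collagenase. The mean of the list ran from 7.30 to 8.03 in male knockouts, from 7.37 to 7.49 in male controls, from 7.45 to 8.11 in female knockouts and from 7.59 to 7.66 in female controls. None was called by genotype. Between the sexes Jun was lower in males, with log2 differences of -1.05 in knockouts and -1.04 in controls, and Myc was higher by 0.65 and 0.50. In each genotype 1 of the 12 was called higher and 1 lower. Over all genes the shares were 3.66% and 3.52% in knockouts, and 3.27% and 3.67% in controls. Male minus female was positive for 4 of 12 in knockouts (median -0.13) and 1 of 12 in controls (median -0.12). The median over all genes was -0.01 in both. The list mean was lower on every male control array than on every female control array. The part of this shift in the sex differences of Tnfrsf19 and Edaradd was not tested.

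The members were also compared with each other within groups, after the mean of each group had been taken off each array's value. Over 22 arrays and 21 pairs, Nfkbia and Relb had the highest Pearson r, 0.651 (Spearman's rho 0.528), with p of 0.00283 and 0.02 from 100000 permutations within groups and adjusted p of 0.0594 and 0.0839. Leaving out the 2 arrays farthest from the median of the first-named gene of the pair, group means taken off, gave r = 0.478. The 2 members that differed by sex, Tnfrsf19 and Edaradd, had r = 0.633 and rho = 0.572 (permutation p of 0.0108 and 0.0159, adjusted p of 0.0900 and 0.0834) and r = 0.569 without such arrays. Traf6 and Nfkbia ran in opposite directions, with r = -0.534 and rho = -0.641 (permutation p of 0.032 and 0.00249, adjusted p of 0.135 and 0.0183), and r = -0.646 without such arrays. Tnfrsf19 also ran with Eda (r = 0.521, rho = 0.633) and with Edar (r = 0.381, rho = 0.590). The rho of these 2 pairs had an adjusted permutation p of 0.0183, as had that of Traf6 with Nfkbia, while no Pearson r had an adjusted p under 0.05. The labels do not record which arrays shared a litter, a preparation or a hybridization.

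**Figure D4:**
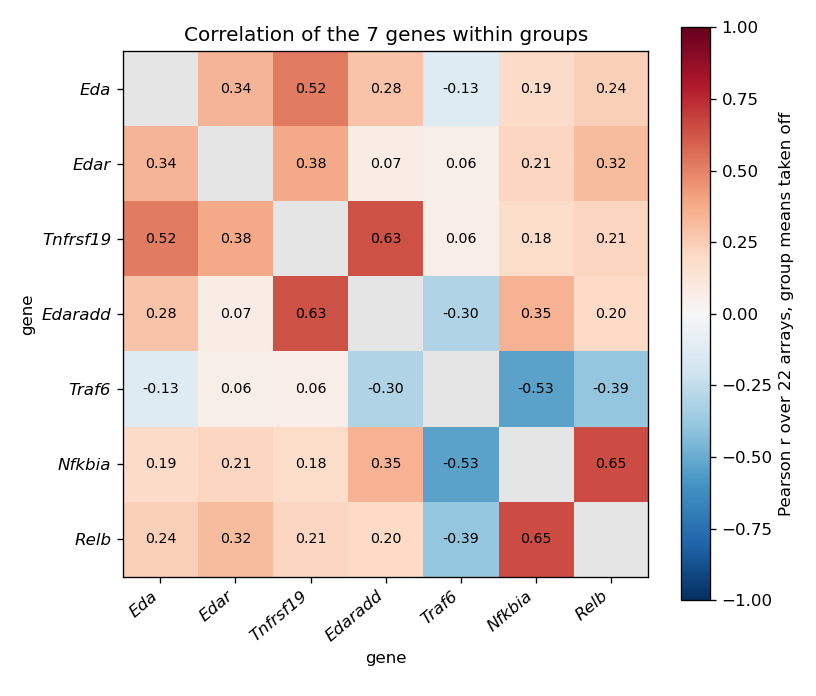
Pearson correlation over 22 arrays between each pair of members after the mean of each group was taken off (colour, from -1 to 1). The highest values are for Nfkbia with Relb (0.651) and for Tnfrsf19 with Edaradd (0.633), and the lowest is for Traf6 with Nfkbia (-0.534).

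The tested genes whose within-group pattern was most like that of a member were found by the same Pearson r over 22 arrays, as a description. For Edar the most similar was Ltbr, which encodes the lymphotoxin beta receptor of the TNF receptor family (r = 0.803), followed by Rpl15-ps3 (0.777) and Gm4995 (0.771). For Edaradd they were Reck (0.790), Fndc3b (0.785) and Matn2 (0.747). For Tnfrsf19 they were Ptgfrn (0.725), Ifnz (0.723) and Slc16a7 (0.703). For Eda they were Alg2 (0.811), Gm12634 (0.748) and Mpst (0.743), and for Traf6 Trim16 (0.799), Rgs9 (0.781) and Gpam (0.748). For Nfkbia they were Stfa1 (0.855), Hgsnat (0.812) and Ext1 (0.803), and for Relb Ctf1 (0.902), Apobr (0.865) and Mfsd4b1 (0.854). Each was found by a search over all genes tested, and such a search alone yields high values.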

How the data were processed

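Per the labels' protocols, the mesenchyme of the sinus was taken off under a microscope after trypsin and collagenase, bladder and urethral epithelium was cut away, and biotin-labelled total RNA was hybridized to Affymetrix arrays. The values deposited by the authors for 72688 probe sets on 22 arrays are log2 values, as their range shows (1.59 to 14.23). How they were normalized, and with what software, is not given in the sources used here. Values were used as deposited.

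Probe sets with exactly 1 symbol in the platform annotation (30439 transcript clusters, 827 of the symbols updated) were kept if above the array median on at least 5 arrays. The probe set of highest mean stood for each gene, which left 19050 genes. limma 3.58.1 in R 4.3.3 fitted the 4 group means over all arrays, with default eBayes, and 6 comparisons were each adjusted by Benjamini-Hochberg over all genes. A gene was called at an adjusted p under 0.05. The programs were tested on simulated data. The members and gene lists were chosen with earlier results of these data known. Named are the members, Sox9 and Shh, the list genes called in any comparison or else up to 3 of smallest p, and the 3 genes most like each member. Precision is limited by the number of arrays, with a median standard error of 0.065 between the male groups and 0.071 between the female groups. No litter or batch is named for any array, and no covariate was fitted. Alternatives were quantile normalization, median centring, filters on dim probe sets, averaging a gene's probe sets, trended and robust eBayes, only the arrays compared, a block for the replicate number, weighting of arrays, the mesenchymal mean as a covariate and leaving out each array.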

Additional observations from a re-analysis of the deposited data

Results flagged for a closer look

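Tnfrsf19 read 8.77 in female control 4, far from the other 4 female controls, which ran from 8.33 to 8.46. The gap was 0.714 of the group's range. Of 36 groups of values looked at in this way, this was the only one. By chance about 1 in every 20 groups would be flagged, so 1 in 36 is no more than chance gives. Without this array the male minus female difference of Tnfrsf19 in controls was 0.57 rather than 0.50.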

How the results depend on the processing

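Across 10 settings and 22 fits that each left out 1 array, the members called stayed at 0 for genotype and interaction and 2 in each comparison of the sexes. Of 1324 member differences recomputed, 1282 kept their direction and side of the threshold and 42 reversed, all of them uncalled with adjusted p of at least 0.922. Over the 10 settings Tnfrsf19 differed between males and females by 0.46 to 0.58 in knockouts and 0.43 to 0.54 in controls, and Edaradd by 0.35 to 0.39 and 0.30 to 0.36. The weakest adjusted p of Edaradd in controls was 0.0458, with the replicate number as a block, and 0.0428 without female control 2. Edar kept an uncalled, positive difference throughout, 0.24 to 0.30 in females (adjusted p of 0.397 to 1.00), 0.10 to 0.26 in males and 0.18 to 0.26 on average. In males it was 0.26 without male knockout 3 and 0.10 without male control 1. Under the 75th percentile filter Eda was not tested.

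Genes called over the whole table moved more. Only the arrays compared gave 20 calls in males and 3 in females. Median centring gave 3 in females and 0 for the interaction, and array weights gave 11 in females, 72 on average and 2 for the interaction. The interaction called 1 gene, Gpr157, and gave 0 after quantile normalization, without a filter and with trended robust eBayes, and 2 with the replicate block. That block changed no member's call. Of 31 same-numbered pairs of arrays, 4 had a correlation over 0.1 (from -0.42 to 0.28, median -0.03). Pairs of unlike number were not set beside them, so these values cannot decide if the replicate numbers pair the arrays. Leaving out 1 array gave 2 to 8 calls in females and 0 to 2 for the interaction. The cause was not tested.

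Signs turned for Relb in males under median centring (-0.0100), for Eda in males with the mesenchymal covariate (0.0037), and for the interaction of Nfkbia under quantile normalization (0.011) and with that covariate (0.0031) and of Eda under median centring (-0.0049). When 1 array was left out, the differences by genotype that crossed 0 were, in males, Eda (-0.0249 to 0.0193) and Relb (-0.0284 to 0.0649), in females, Eda (-0.0469 to 0.0229), Nfkbia (-0.107 to 0.0185), Relb (-0.0738 to 0.0072) and Tnfrsf19 (-0.0490 to 0.0932), and on average, Eda (-0.0262 to 0.0087) and Relb (-0.0353 to 0.0114). Between the sexes they were, in knockouts, Nfkbia (-0.0037 to 0.0982) and Relb (-0.0260 to 0.0674), and in controls, Nfkbia (-0.0010 to 0.0926), Relb (-0.0621 to 0.0096) and Traf6 (-0.137 to 0.0058). For the interaction they were Eda (-0.0283 to 0.0415), Edaradd (-0.0143 to 0.106), Nfkbia (-0.0602 to 0.0654), Tnfrsf19 (-0.0115 to 0.131) and Traf6 (-0.0307 to 0.112).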
